A study of Mus musculus with 7 samples.

Results

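The genes described here encode the subunits, activators and assembly chaperones of the proteasome, measured in germinal centre B cells of mice. They were chosen by symbol: Psma, Psmb, Psmc, Psmd, Psme or Psmg followed by a digit, from probes that the platform annotation gives a single gene symbol. The rule found 48 genes of the 21515 on the array, through 51 probes, and all 48 were bright enough to be tested. Of these, 46 belong to the proteasome or its assembly. The other 2 share only the start of a name: Psmc3ip, which encodes a meiotic recombination factor, and Psme3ip1, which encodes a binding partner of the activator PA28 gamma. Psma4 did not qualify, because each of its 2 probes carries 2 symbols.

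Total RNA came from splenic B cells sorted as B220+CD95+GL7+ 7 days after mice received sheep red blood cells into the peritoneum, and each sample was hybridised to 1 whole-transcript array. There were 4 wild-type (WT) samples and 3 RRas2-deficient samples, called biological replicates in the labels, so p-values reflect only how much these samples varied. One label field of the deficient samples reads Rras-deficient where the title reads RRas2-deficient; the title was followed. How the gene was inactivated, in which cells, the strain, and the age of the mice are not given in the sources used here. All mice were immunized, so no resting B cells enter the comparison. Values are log2 intensities, on which a step of 1 is a doubling, and lists of values follow replicate order.

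The 26S proteasome degrades proteins tagged with ubiquitin. Its barrel-shaped core is built of alpha rings at the ends and beta rings inside, and 3 of the beta subunits cut peptide bonds. A regulatory cap of ATPases and other subunits recognises, unfolds and feeds in the substrate. Lymphocytes also make the immunoproteasome, in which interferon-inducible subunits replace the standard catalytic ones and favour peptides fit for MHC class I. The PA28 ring, made from the products of Psme1 and Psme2, opens the core without ubiquitin, and dividing B cells depend on proteasome activity for cell cycle control and for NF-kB signalling.

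The 7 arrays differed in a way that cut across genotype and that most proteasome genes followed. The interquartile range of an array's log2 intensities was 2.37 to 2.49 on 3 arrays (WT replicates 1 and 2 and RRas2-deficient replicate 2, called narrower below). On the other 4 (WT replicates 3 and 4 and RRas2-deficient replicates 1 and 3, called wider) it was 2.69 to 2.91. Correlations across probes were 0.981 to 0.993 within a set and 0.948 to 0.976 between sets. The sets were drawn from the arrays' own values and no label names them. WT replicate 3 stood apart in sex-linked genes, with Xist at 6.61 against 9.43 to 10.29 on the other 6 arrays and the Y-linked Eif2s3y at 6.75 against 3.09 to 4.40. Rras2 itself averaged 7.90 ± 0.74 (SD, n = 4) in WT and 6.91 ± 0.22 (SD, n = 3) in deficient cells. The log2 difference of -0.99 had a limma adjusted p of 1.00. With the array set as a block it was -1.13, with an adjusted p of 0.296. Every deficient array read below every WT array (6.68 to 7.12 against 7.13 to 8.66), and 1.08% of tested genes likewise did not overlap, in either direction.

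In the comparison of RRas2-deficient with WT cells none of the 48 genes passed an adjusted p of 0.05, where 0.0124% of the 16136 tested genes passed (2 genes). An unadjusted p below 0.05 was reached by 0 members and by 0.818% of tested genes, and the lowest unadjusted p was 0.146. For each of the 48 genes the ranges of both genotypes overlapped, whereas they did not in 1.08% of tested genes. Of the 46 proteasome genes 27 had a lower and 19 a higher mean in deficient cells, with a median log2 difference of -0.03. Over all tested genes 48.3% were lower and the median was 0.00. These data do not show that the genotypes are alike, since limma's 95% intervals of single members reached from -1.99 at the low end to 2.07 at the high end.

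**Figure D1:**
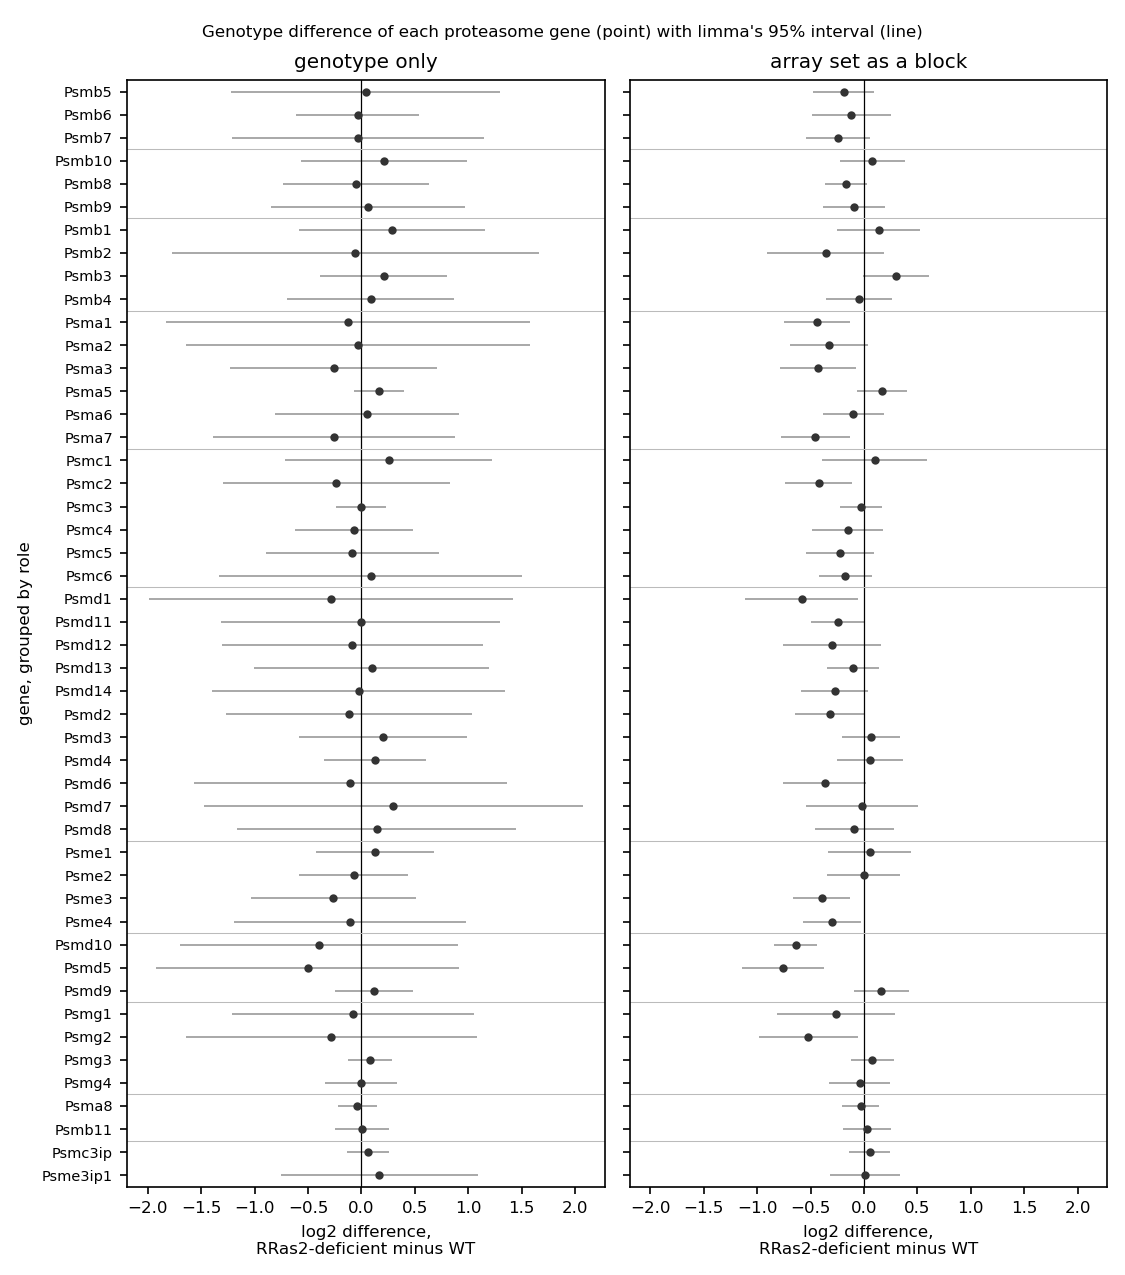
Log2 difference (RRas2-deficient minus WT, x axis) of each of the 48 genes (rows, grouped by role) with limma's 95% interval, fitted on genotype only (left) and with the array set as a block (right). Every interval on the left includes 0; on the right 10 exclude it, all on the lower side, and none of these passed the adjusted threshold.

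Upstream sequence is shown for 2 of the 3 pairs of catalytic genes that replace each other, Psmb5 with Psmb8 and Psmb6 with Psmb9, and for Psmb3, a subunit whose values ran against most others. RefSeq promoter sequences (build GRCm38.p6) were matched by gene ID for 40 of the 48 genes. The 150 bases before the annotated start are given 5′ to 3′ on the strand of the gene. Capitals mark matches on either strand to any of 4 motifs: TGACNNNGC (antioxidant response element, bound by the NRF1 and NRF2 factors that drive standard subunits), the interferon-stimulated response element (GAAA, any 2 bases, GAAA), CCAAT and GGGCGG.
Psmb5, chr14:54617996-54618145, minus strand: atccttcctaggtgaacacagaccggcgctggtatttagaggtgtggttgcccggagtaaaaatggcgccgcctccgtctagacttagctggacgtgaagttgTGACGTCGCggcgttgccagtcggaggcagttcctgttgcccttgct
Psmb8, chr17:34198045-34198194, plus strand: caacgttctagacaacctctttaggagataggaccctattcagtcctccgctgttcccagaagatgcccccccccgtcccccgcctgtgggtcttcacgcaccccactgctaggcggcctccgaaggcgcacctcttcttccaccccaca
Psmb6, chr11:70525207-70525356, plus strand: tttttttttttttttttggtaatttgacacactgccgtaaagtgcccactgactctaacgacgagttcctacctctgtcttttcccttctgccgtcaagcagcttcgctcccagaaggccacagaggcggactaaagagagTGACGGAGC
Psmb9, chr17:34187331-34187480, minus strand: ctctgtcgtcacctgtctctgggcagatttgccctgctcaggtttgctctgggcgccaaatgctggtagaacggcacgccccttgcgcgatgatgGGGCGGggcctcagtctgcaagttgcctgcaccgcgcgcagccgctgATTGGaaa
Psmb3, chr11:97703284-97703433, plus strand: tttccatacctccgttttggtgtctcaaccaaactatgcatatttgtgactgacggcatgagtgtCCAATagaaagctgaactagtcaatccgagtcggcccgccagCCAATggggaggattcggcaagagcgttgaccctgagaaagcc

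In these stretches the genes of the standard subunits Psmb5 and Psmb6 each held 1 match to TGACNNNGC, and their replacements Psmb8 and Psmb9 held none. Psmb8 held no match to any of the 4, and Psmb9 held 1 GGGCGG and 1 CCAAT in reverse. Psmb3 held 2 matches to CCAAT. No capitals of different motifs overlapped. Searched over the 250 bases before the start, TGACNNNGC occurred in 5 of the 40 genes (Psmb5, Psmb6, Psmc6, Psmd9 and Psmd12; 11.4% of their 44 windows) against 10.2% of all 32851 windows. The interferon-stimulated response element occurred in 3 genes, Psmb3, Psmd4 and Psmd9 (6.82% of windows against 2.98%). CCAAT occurred in 16 genes (36.4% against 33.8%) and GGGCGG in 22 (52.3% against 32.7%). A match is only a run of letters, and its absence says nothing about a factor.

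The standard catalytic subunits were close in mean between the genotypes. Psmb5, the chymotrypsin-like beta5 subunit, read 6.09, 6.45, 7.56 and 7.59 in WT and 7.29, 6.01 and 7.59 in deficient cells, a log2 difference of 0.04 ± 0.53 (SE). Psmb6, the caspase-like beta1 subunit, read 6.37, 6.89, 7.36 and 7.00 in WT and 7.12, 6.60 and 6.89 in deficient cells (-0.04 ± 0.24). Psmb7, the trypsin-like beta2 subunit, read 7.73, 7.59, 9.20 and 9.0 in WT and 8.58, 7.68 and 8.79 in deficient cells (-0.03 ± 0.49). In both genotypes the low readings of Psmb5 and Psmb7 were those of the narrower arrays, and for these 2 genes the spread within a genotype was larger than the difference between them. Psmb6 varied least of these 3, and its sets overlapped.

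The immunoproteasome subunits were bright in these B cells and likewise overlapped between genotypes. Psmb8, which replaces Psmb5, read 8.46, 8.53, 9.35 and 9.27 in WT and 9.03, 8.46 and 9.08 in deficient cells (-0.05 ± 0.29). Psmb9, which replaces Psmb6, read 6.86, 7.03, 8.21 and 7.91 in WT and 7.82, 7.08 and 7.80 in deficient cells (0.06 ± 0.38). Psmb10, which replaces Psmb7, read 7.83, 8.05, 8.74 and 8.81 in WT and 8.58, 8.08 and 9.04 in deficient cells (0.21 ± 0.33). For all 3 genes every wider array lay above every narrower one. Psmb10 was highest of all 7 arrays on RRas2-deficient replicate 3, and without that array its difference was -0.03. The type I interferon response list was also highest there, with a mean log2 intensity of 6.24 against 5.37 to 5.57 on the other 6 arrays. So was the mean of the myeloid and dendritic markers, at 5.10 against 4.60 to 4.85. Of these markers Csf1r, Lyz2, Itgax and Mpeg1 were highest on that array. Adgre1, Cd14, Itgam, Fcgr1, Cd68, Siglech and Flt3 were highest on other arrays. Of the 46 proteasome genes 4 were highest on RRas2-deficient replicate 3, namely Psmb10, Psmb1, Psmc1 and Psmd8. Psmb8, Psmb9 and the PA28 gene Psme1 were highest on WT replicate 3, and its partner Psme2 on WT replicate 2. The part of the interferon list or of the myeloid and dendritic list in the Psmb10 value was not tested.

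**Figure D2:**
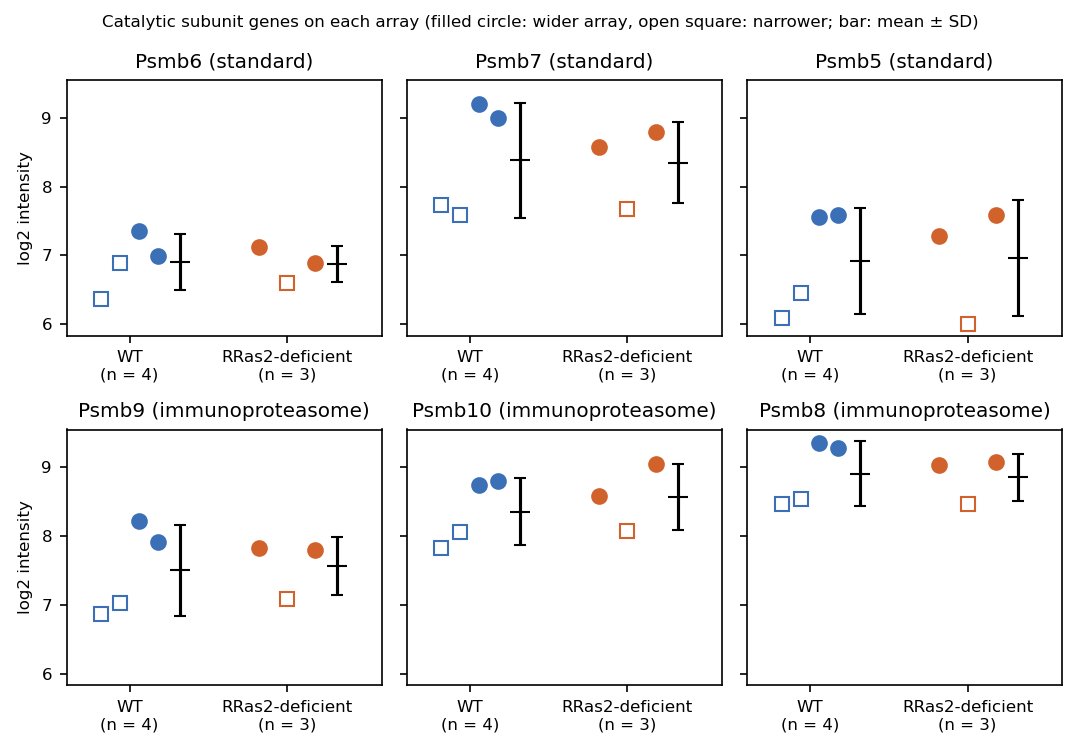
Log2 intensity (y axis) of the 3 standard (top) and 3 immunoproteasome (bottom) catalytic subunit genes on the 4 WT and 3 RRas2-deficient arrays, each column holding a subunit and its replacement. Points are arrays (filled circle wider, open square narrower) and bars are mean ± SD; for every gene the genotypes overlap and, except for Psmb6, all filled points lie above the open ones.

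The balance within each exchange pair was read as the log2 value of the immunoproteasome gene minus that of the standard gene on the same array. Only differences of this quantity between arrays were read, because levels of different probes cannot be compared. For Psmb8 minus Psmb5 it was 1.98 ± 0.31 (SD, n = 4) in WT and 1.89 ± 0.51 (SD, n = 3) in deficient cells. For Psmb9 minus Psmb6 it was 0.60 ± 0.36 and 0.70 ± 0.21, and for Psmb10 minus Psmb7 it was -0.02 ± 0.40 and 0.22 ± 0.20. The genotypes overlapped in all 3 pairs, and each difference of means was smaller than the WT SD, which spans both array sets. Within the narrower set, with 1 deficient array, the differences were 0.23, 0.17 and 0.12 in the same order. Within the wider set they were -0.12, -0.08 and 0.46. For Psmb10 minus Psmb7 the wider arrays read -0.46 and -0.20 in WT and 0.01 and 0.26 in deficient cells. The array sets parted 2 of the pairs in opposite directions: Psmb8 minus Psmb5 ran from 2.08 to 2.46 on the narrower and from 1.48 to 1.79 on the wider arrays, while Psmb9 minus Psmb6 ran from 0.14 to 0.49 and from 0.71 to 0.91. Psmb10 minus Psmb7 overlapped between sets. By mean, Psmb5 rose more than Psmb8 from the narrower to the wider arrays (1.33 against 0.70), and Psmb9 rose more than Psmb6 (0.94 against 0.47). The part of the arrays' wider range in these differences was not tested.

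Of the structural beta subunits, Psmb1 had the higher mean in deficient cells and Psmb3 behaved unlike its neighbours in the ring. Psmb1 read 7.87, 8.51, 9.15 and 8.98 in WT and 9.03, 8.35 and 9.34 in deficient cells (0.28 ± 0.37). Psmb3 read 5.91, 6.08, 5.70 and 5.29 in WT and 5.59, 6.39 and 5.88 in deficient cells (0.21 ± 0.25). Its 3 narrower arrays lay above its 4 wider ones, the reverse of Psmb1, Psmb2 and Psmb4. Psmb2 and Psmb4 differed between genotypes by -0.06 and 0.08.

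In the alpha ring, whose subunits gate the entry to the core, 4 of 6 genes had lower and 2 higher means in deficient cells. Psma3 read 7.86, 8.34, 9.0 and 8.84 in WT and 8.62, 7.40 and 8.72 in deficient cells (-0.26 ± 0.41). Psma5 had the lowest unadjusted p of all members (0.146), reading 3.96, 3.72, 3.75 and 3.96 in WT and 3.96, 4.10 and 3.97 in deficient cells (0.16 ± 0.10). Both Psma5 probes were dim, the other averaging 3.10, below the limit of 3.48 set for dim genes, while the means of the other alpha genes ran from 7.13 to 8.40. Psma1 lies 2 measured genes away from Rras2 on chromosome 7, the closest of the 4 members on that chromosome. It read 6.28, 6.15, 8.38 and 7.92 in WT and 7.53, 5.89 and 7.74 in deficient cells (-0.13 ± 0.72). With the array set as a block its difference was -0.44 ± 0.13 (SE, limma adjusted p = 0.381). Neither difference passed an adjusted p of 0.05, but nor did that of Rras2 itself, so these fits cannot tell whether this near neighbour differs.

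In the regulatory cap the genotypes also overlapped. Among the 6 ATPases of its base, Psmc1 read 6.84, 7.52, 8.39 and 8.07 in WT and 7.95, 7.47 and 8.47 in deficient cells (0.26 ± 0.41), and Psmc2 read 6.95, 6.93, 8.37 and 7.91 against 7.52, 6.63 and 7.76 (-0.23 ± 0.44). The other 4 lay between -0.09 and 0.08, and Psmc3 barely varied at all, from 7.23 to 7.49 over the 7 arrays. Among the 11 non-ATPase subunits 6 had lower and 5 higher means. Psmd4, a ubiquitin receptor, read 7.22, 7.57, 8.08 and 7.74 in WT and 7.83, 7.63 and 7.88 in deficient cells (0.12 ± 0.20). Psmd3, a scaffold subunit of the lid, read 6.54, 6.89, 7.59 and 7.38 against 7.69, 6.70 and 7.51 (0.20 ± 0.33). For Psmd14, the deubiquitinase that removes ubiquitin from the substrate, the difference was -0.03 ± 0.58.

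Of the alternative activators, the interferon-inducible PA28 genes took different courses across arrays. Psme1 read 8.09, 8.73, 9.05 and 8.91 in WT and 8.82, 8.66 and 8.97 in deficient cells (0.12 ± 0.23). Psme2, its partner in the ring, read 6.23, 6.83, 6.11 and 6.12 against 6.06, 6.53 and 6.15 (-0.07 ± 0.21). Every wider array read higher than the narrower ones for Psme1 and lower for Psme2. The nuclear activator gene Psme3 read 6.79, 6.97, 7.89 and 7.49 in WT and 7.28, 6.50 and 7.30 in deficient cells (-0.26 ± 0.32), and Psme4, which encodes PA200, read 6.23, 6.44, 7.53 and 7.30 against 7.07, 5.90 and 7.34 (-0.10 ± 0.46).

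Of the 48 genes, the 2 with the most negative differences encode assembly chaperones of the base. Psmd5, which keeps part of the base from joining the core too early, read 5.65, 6.31, 7.67 and 7.41 in WT and 6.71, 5.29 and 6.76 in deficient cells (-0.50 ± 0.60). Psmd10, known as gankyrin, read 5.57, 5.47, 7.02 and 6.88 against 6.40, 4.88 and 6.22 (-0.40 ± 0.55); it was outside the rule for named genes and was added after its values were seen. In both genes the deficient array of the narrower set lay below both WT arrays of that set, and both deficient arrays of the wider set lay below both WT arrays there. The same held for Psma1, Psma3, Psma7, Psmc2, Psmd11, Psme3 and Psmg2. Taken singly, the order in the narrower set occurred in 28.6% of tested and 32.2% of brighter genes (at or above the median intensity). That in the wider set occurred in 18.5% and 24.1%. The share of tested genes that held both orders at once was not counted, so whether these members stand out is not known. The third chaperone of the base, Psmd9, read 5.96, 6.28, 5.84 and 5.96 in WT and 6.10, 6.37 and 5.91 in deficient cells (0.12 ± 0.15). Of the chaperones that build the core, Psmg2 read 4.78, 5.12, 6.91 and 6.21 against 5.92, 4.71 and 5.80 (-0.28 ± 0.57) and Psmg3 read 6.0, 6.09, 6.14 and 6.15 against 6.21, 6.25 and 6.07 (0.08 ± 0.09). Psmg1 and Psmg4 differed by -0.08 and -0.01.

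The genes of the tissue-restricted subunits were dim and flat. Psma8, of testis, read 4.06, 4.18, 4.06 and 4.04 in WT and 4.00, 4.07 and 4.06 in deficient cells, and Psmb11, of thymic cortical epithelium, read 4.29, 4.16, 4.12 and 3.89 against 4.12, 4.12 and 4.13. Both stayed within 0.40 on the log2 scale over the 7 arrays and under the median of 4.53 over all genes. Of the genes matched by name only, Psmc3ip read 6.04, 6.25, 6.21 and 6.16 in WT and 6.24, 6.21 and 6.23 in deficient cells (0.06 ± 0.08). Psme3ip1 read 7.66, 7.91, 8.98 and 8.61 against 8.57, 7.88 and 8.92 (0.17 ± 0.39).

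**Figure D3:**
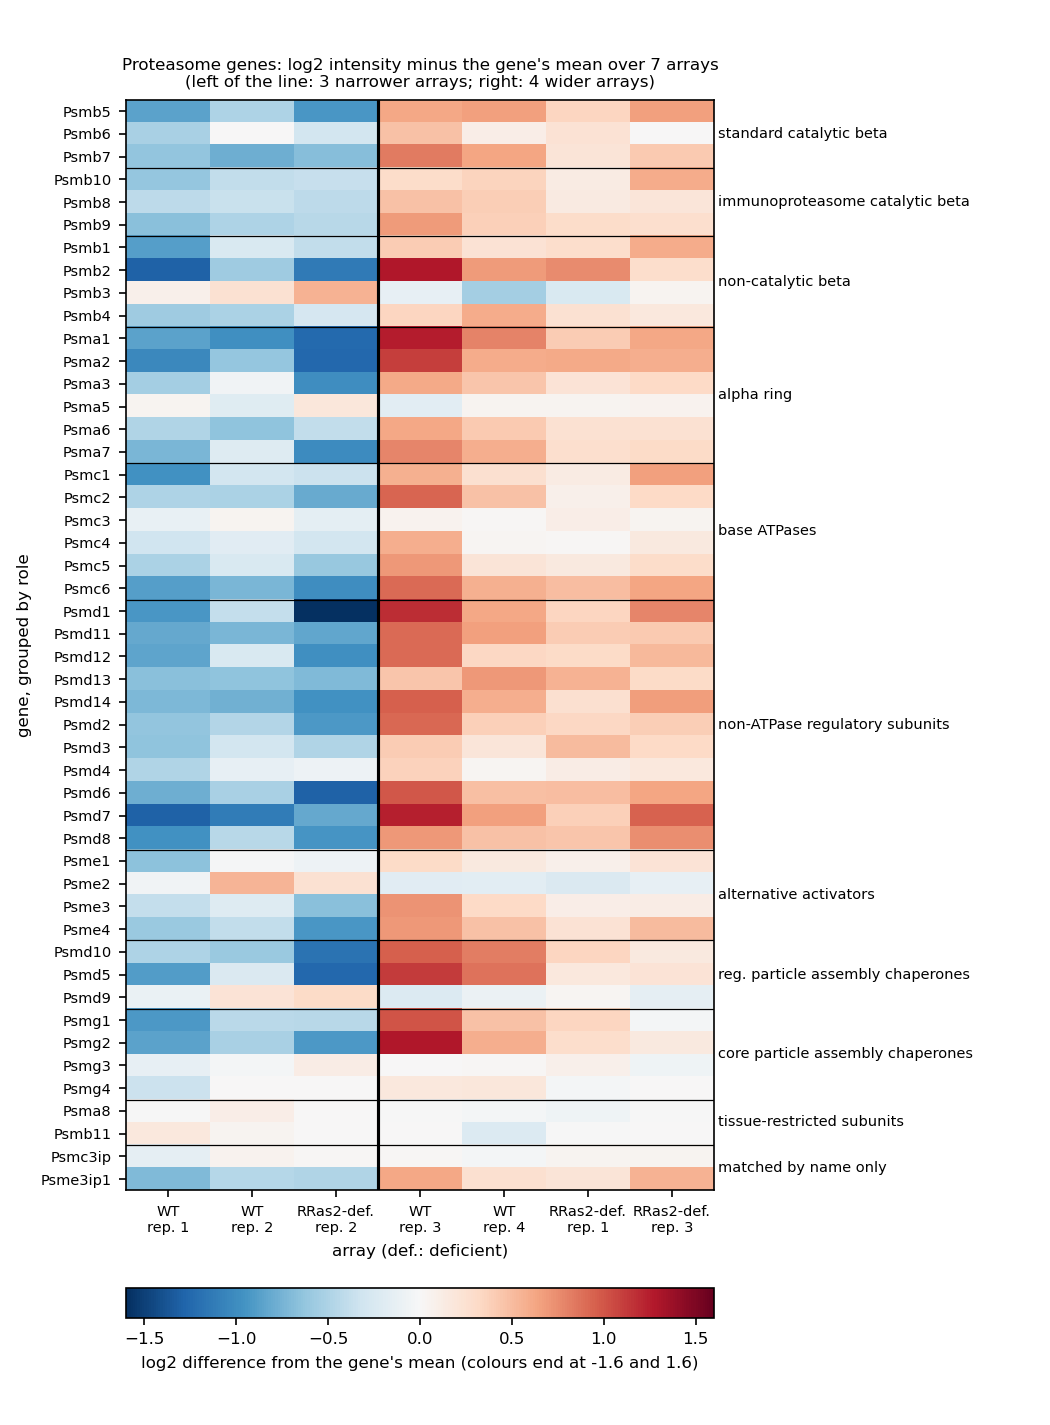
Log2 intensity of each of the 48 genes (rows, grouped by role) minus its mean over the 7 arrays (columns, the 3 narrower arrays left of the line), in colour from blue (below the mean) to red (above). Most rows change colour at the line between the array sets, not between the genotypes, while Psmb3 and Psme2 run the other way and Psmc3, Psmg3, Psma8 and Psmc3ip stay pale.

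The main axis along which proteasome genes varied was the array set. In 36 of the 46 genes all 4 wider arrays read above all 3 narrower ones, where 26.9% of all tested genes did so, and 39.4% of tested genes at or above the median intensity. These brighter genes were still dimmer than the 46, with a median mean intensity of 6.19 against 7.18, so the comparison is not matched for brightness. In 2 genes, Psmb3 and Psme2, the wider arrays all read below the narrower ones (13.6% of tested and 10.7% of brighter genes), and in 8 the sets overlapped. The median shift of the 46 genes was 0.94 on the log2 scale, against -0.02 for all tested genes and 0.17 for the brighter genes. No test is given for this, since the sets were defined on the same arrays. Both genotypes showed the shift: for Psmd7, the gene with the largest, it was 2.15 between the WT arrays and 1.48 between the deficient arrays, and for Psma2 1.67 and 1.85. By role, the median shift was 1.37 for the non-ATPase subunits, 1.22 for the standard catalytic subunits, 1.03 for the alpha ring, 0.87 for the ATPases and 0.81 for the immunoproteasome subunits.

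**Figure D4:**
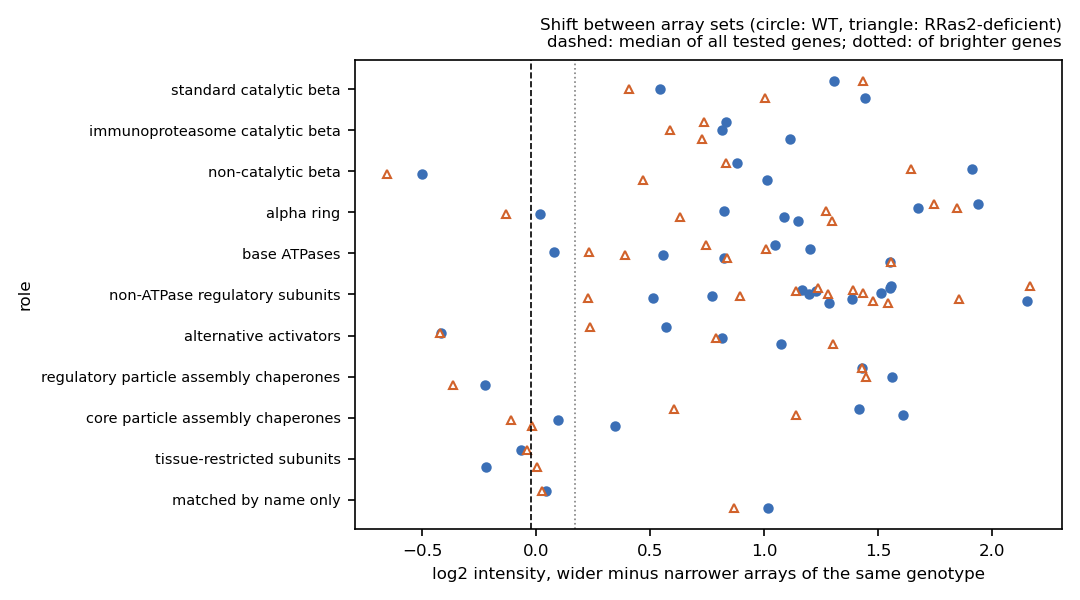
Shift of each gene between the array sets (x axis, mean of the wider minus the narrower arrays of the same genotype, log2) by role (rows), for WT (circles, 2 arrays minus 2) and RRas2-deficient cells (triangles, 2 minus 1). Most points lie right of the dashed line, the median of all tested genes at -0.02, and of the dotted line, that of brighter genes at 0.17, in both genotypes.

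Of the markers of the sorted cells, all 6 measured germinal centre genes read higher without overlap on the wider arrays, as did 5 of the 7 measured B cell genes, while Cd22 and Pax5 overlapped. Of all tested genes 26.9% read higher in this way, and of the brighter genes 39.4%. These markers were brighter still, with median mean intensities of 9.01 (germinal centre) and 10.68 (B cell) against 6.19 for the brighter genes. The mean log2 intensity of 44 proteasome genes (without the tissue-restricted and name-only ones) was 6.53 to 6.80 on the narrower and 7.40 to 7.80 on the wider arrays. That of 6 of 8 listed germinal centre markers, such as Bcl6, S1pr2 and Rgs13, was 8.08 to 8.22 and 9.21 to 9.77, and that of 7 of 8 listed B cell markers, such as Cd79a and Ms4a1, was 10.37 to 10.49 and 10.82 to 11.00. T cell markers (8 of 10 genes) ran from 4.11 to 4.68 and from 3.81 to 4.06, and neutrophil markers (8 genes) from 3.55 to 3.72 and from 3.37 to 3.49. Gene by gene, 2 of 8 in each of these lists read lower without overlap on the wider arrays, and 6 overlapped. Of all tested genes 13.6% read lower in this way. Both lists were dim, and only 4 of the 8 neutrophil genes were bright enough to be tested. Myeloid and dendritic markers (11 of 12 genes) overlapped, at 4.76 to 4.85 and 4.60 to 5.10, as did plasma cell markers (6 genes), at 6.26 to 6.58 and 6.41 to 6.79. The part of cell composition in the proteasome shift was not tested, and in sorted bulk RNA fewer cells of a type and less RNA per cell cannot be told apart.

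**Figure D5:**
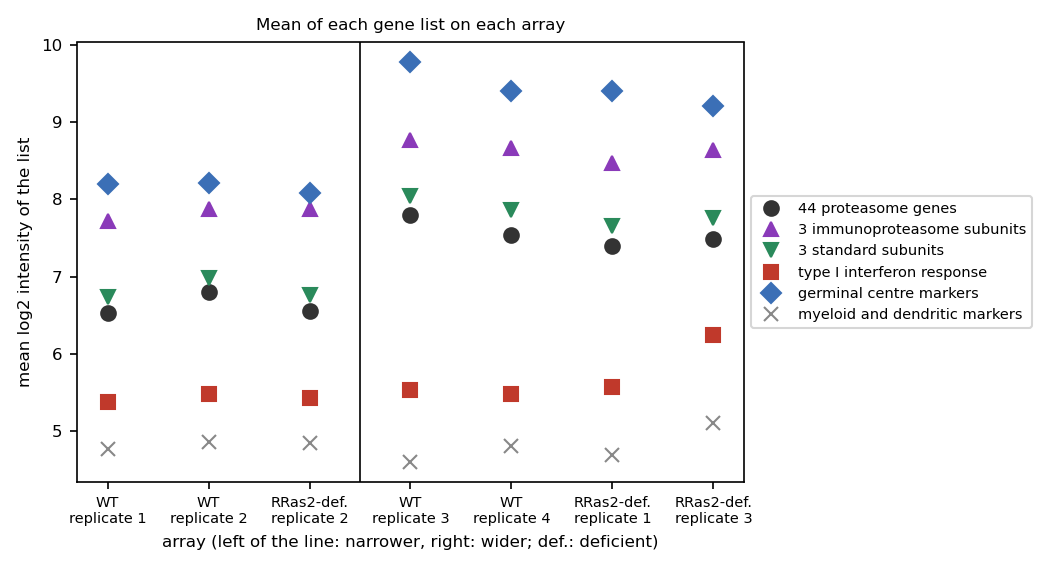
Mean log2 intensity (y axis) of 6 gene lists on each array (x axis, narrower arrays left of the line). Proteasome, catalytic and germinal centre lists step up together on the 4 wider arrays, whereas the interferon list (6.24) and the myeloid and dendritic list (5.10) are highest on RRas2-deficient replicate 3.

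With the array set held as a block, 35 of the 46 genes had lower values in deficient cells, and the median log2 difference was -0.16, where 50.9% of all tested genes were lower and their median was 0.00. Most of the 46 are brighter genes, and of tested genes at or above the median intensity 59.2% were lower, with a median of -0.04. None passed an adjusted p of 0.05 (0.0124% of tested genes did), and the lowest adjusted p was 0.262. Before adjustment 10 genes were lower and 0 higher at a p below 0.05, where 6.24% of tested genes were lower and 3.89% higher, and 8.98% and 3.32% of the brighter genes. The 10 were Psma1, Psma3, Psma7, Psmc2, Psmd1, Psmd5, Psmd10, Psme3, Psme4 and Psmg2. Psmd10 had the lowest p of these, with a blocked difference of -0.64 ± 0.09 (SE, limma adjusted p = 0.262), and Psmd5 differed by -0.76 ± 0.16 (SE, limma adjusted p = 0.296). None of the catalytic subunits was among the 10, and their blocked differences ran from -0.24 for Psmb7 to 0.08 for Psmb10.

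Held apart, each set gave its own count. Within the 4 wider arrays both deficient arrays lay below both WT arrays in 16 of the 46 genes and above in 0, against 18.5% and 14.3% of tested genes and 24.1% and 10.7% of brighter ones. Within this set both WT arrays also had larger interquartile ranges (2.91 and 2.78) than both deficient arrays (2.73 and 2.69). The block does not take up this difference, and its part in the count was not tested. Within the 3 narrower arrays the single deficient array lay below both WT arrays in 22 genes and above in 10, against 28.6% and 33.6% of tested genes and 32.2% and 30.0% of brighter ones. WT replicate 3 was the highest of the 7 arrays in 29 of the 46 genes, and RRas2-deficient replicate 2 the lowest in 21. The direction of the group's median turned without either of these arrays or WT replicate 4. Without WT replicate 3 the median difference was 0.20, with 7 of 46 genes lower, and without RRas2-deficient replicate 2 it was 0.22, with 6 lower. Without WT replicate 4 it was 0.09, with 15 lower. When each array's interquartile range entered the fit as a number and the block was dropped, 15 of 46 were lower with a median of 0.05, against 45.3% of tested and 45% of brighter genes lower, so the lower values under the block were not seen under that covariate.

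Genes that work with the proteasome but lie outside the rule were fitted on genotype alone in the same way, and 0 of them reached an adjusted p below 0.05 (0.0124% of tested genes did) or an unadjusted one (0.818%). Of 19 measured partners, such as the core maturation factor Pomp and the transcription factor NRF1 gene Nfe2l1, 11 were lower and 8 higher in deficient cells and 0 passed. Those of lowest unadjusted p were Zfand2a (-0.21 ± 0.12) and the ubiquitin ligase gene Ube3a (-0.27 ± 0.26). Of 13 genes of ubiquitin transfer and substrate extraction 9 were lower and 4 higher and 0 passed, with Nsfl1c, a cofactor of the segregase p97, at -0.20 ± 0.28 and the ubiquitin-activating enzyme gene Uba6 at -0.42 ± 0.65. Of 12 genes of class I antigen processing, which use the peptides the proteasome makes, 6 were lower and 6 higher and 0 passed. The peptide transporter genes Tap1 and Tap2 differed by 0.17 ± 0.25 and 0.09 ± 0.21, B2m by -0.03 ± 0.21, the tapasin gene Tapbp by 0.16 ± 0.19 and the aminopeptidase gene Lap3 by -0.51 ± 0.43. The median difference was -0.05 for the partners, -0.01 for the ubiquitin genes and 0.01 for antigen processing. With the array set as a block these medians were -0.21, -0.18 and -0.10, and 17 of 19, 10 of 13 and 7 of 12 genes were lower, against 50.9% of tested genes and 59.2% of the brighter ones. Under the block 5, 3 and 3 of them were lower at an unadjusted p below 0.05 (6.24% of tested and 8.98% of brighter genes), 0 were higher, and 0 passed after adjustment. Their arrays parted by set as well, with all wider above all narrower arrays in 15 of 19, 12 of 13 and 9 of 12 genes, against 26.9% of tested and 39.4% of brighter genes.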

How the data were processed

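The authors deposited 1 log2 intensity per probe for each of 7 samples (the scale was read from the values). The submitters' processing notes name RMA and oligo, with no versions, and no further steps are given in the sources used here. The number of arrays limits the precision. Groups follow the genotype in the titles.

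Of several probes of a gene the brightest over all arrays was kept, which concerned 3 members. Genes under the 25th percentile of mean intensity (3.48) were left out, leaving 16136 of 21515. A model of genotype alone was fitted to each (limma 3.58.1, R 4.3.3; two-sided moderated tests), and p-values were adjusted by Benjamini-Hochberg over all of them. Errors of log2 differences are moderated standard errors. Gene lists were only counted. The fit was tested on simulated data.

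The members, lists and array sets (split where the sorted interquartile ranges lay farthest apart) were chosen with earlier results of these data known. Named were the catalytic subunits, all activators, the 2 members of lowest p of each other role, and per pathway list the 2 of lowest p with Tap1, Tap2 and B2m. Other genes singled out, such as Psma1, Psma2, Psmd7, Psmd10 and Psmd14, were picked with their values known. One motif searched earlier is not reported here. Alternatives covered the filter, probe choice, normalization, variance prior, array weights (statmod 1.5.0), replicate number and array set as blocks, and single arrays left out.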

Additional observations from a re-analysis of the deposited data

Results flagged for a closer look

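In 43 WT value sets (the named genes, exchange pairs and role means), 2 had a WT array far from the other 3. Chance would give about 1 in 20 in independent sets, so 2 of 43 is near that rate. The sets are not independent, since role means contain named genes, and WT values span both array sets. For Psme2 the ratio of gap to range was 0.834, with WT replicate 2 at 6.83 against 6.11 to 6.23 on the others. For Psma8 it was 0.854, with WT replicate 2 at 4.18 against 4.04 to 4.06, all under the median of 4.53 over all genes.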

How the results depend on the processing

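No member passed the adjusted threshold in any of the 24 alternative fits, which changed the filter, the probe choice, the normalization, the variance prior, array weights, blocks, the covariate or the arrays used. The median log2 difference over the proteasome genes ran from -0.20 to 0.22 when single arrays were left out and from -0.21 to -0.07 when this was done with the array set as a block. With the replicate number as a block, which drops WT replicate 4, the median was 0.09, with 0 members past the threshold. Deviations of same-numbered arrays from their genotype means correlated at -0.59, 0.78 and 0.66 across genes for replicates 1, 2 and 3. This cannot decide whether the numbers pair the samples. The arrays of replicate 1 lie in different array sets, and those of replicates 2 and 3 each share a set. In single exchange pairs the difference between genotypes ran, over single arrays left out, from -0.37 to 0.12 for Psmb8 minus Psmb5, from -0.05 to 0.21 for Psmb9 minus Psmb6 and from 0.10 to 0.41 for Psmb10 minus Psmb7. Within the 3 narrower arrays that of Psmb8 minus Psmb5 was 0.23, with 1 deficient array, and within the 4 wider arrays it was -0.12. The cause was not tested. Among the 26 named members, up to 10 changed the sign of their difference (without RRas2-deficient replicate 2). Centring on array medians or further quantile normalization gave medians over all tested genes of -0.01 and 0.00. The low signal of Psma5, Psma8, Psmb11 and Psmg4 limits what their probes can show.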
